A study of Mus musculus with 12 samples.

Results

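The genes examined here were 9 intracellular signalling genes that act downstream of Fc receptors: the Src family kinases Lyn and Fgr, the kinases Syk and Btk, the phospholipase Plcg2, the Rac exchange factor Vav1, the lipid phosphatase Inpp5d, the tyrosine phosphatase Ptpn6 and the Src-like adaptor Sla. They were taken by symbol from a count table of 24421 genes, and all 9 were among the 11468 genes with enough counts to be tested. The table came from bulk RNA-seq of bone marrow-derived macrophages (BMDMs) of wild-type C57BL/6 mice, which were differentiated for 5 days in medium with 100 ng/mL of M-CSF, the macrophage growth factor, changed on day 3. Cells in all 4 groups were then exposed for 4 hours, either to the BET bromodomain inhibitor I-BET151 (iBET, 5.0 µM) or to its solvent DMSO, and either to ovalbumin alone (Ova) or to ovalbumin bound by rabbit anti-ovalbumin IgG as an insoluble immune complex (IC). This gave the groups DMSO Ova, DMSO IC, iBET Ova and iBET IC. Each group held 3 libraries, 1 from each of the mice A, B and C, and a library is named here by group and mouse (DMSO Ova A). Drug and stimulus were added together according to the labels, but the methods of the study have the drug added before the stimulus. The files do not settle this. The labels give a DMSO percentage for the DMSO groups alone, so whether the iBET groups held an equal amount of solvent is not known. Ova alone is the control for the antigen without antibody, and there was no group without antigen. The study used mice of both sexes, and the age of these 3 mice and the sex of each were not given in the sources used here.

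When IgG complexes cross-link activating Fc gamma receptors, Src family kinases phosphorylate the tyrosine motifs (ITAMs) of the receptor and of its adaptor chain, and Syk docks there and is activated. Syk then drives Vav1, which loads Rac for actin remodelling and phagocytosis, and Btk with Plcg2, which release calcium and activate protein kinase C. The brake comes from receptors with inhibitory motifs (ITIMs): the inhibitory Fc gamma receptor recruits Inpp5d (SHIP-1), which removes the product of phosphoinositide 3-kinase, other ITIM receptors recruit Ptpn6 (SHP-1), which dephosphorylates tyrosines, and Sla (SLAP) brings Cbl ubiquitin ligases to activated receptors. Lyn sits on both sides, since it phosphorylates ITAMs and ITIMs. BET proteins bind acetylated histones and help RNA polymerase to elongate, and I-BET151 blocks that binding.

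Promoter windows from RefSeq (build GRCm38.p6, 250 bases before to 50 bases after an annotated start) were matched for 7 of the 9 genes, with 8 windows in all because Syk has a pair of them. None was matched for Lyn and Sla. The windows were searched on both strands for 5 short motifs, namely the macrophage PU.1 form GAGGAAGT, the general ETS form CCGGAAGT, the AP-1 form TGANTCA, the E-box CACGTG and the TATA box TATAAA. The PU.1 and ETS forms share the letters GGAAGT. The PU.1 letters were found in Inpp5d, at bases -20 to -13 before the start, and in Vav1, at bases -11 to -4, and the E-box in Plcg2, at bases -20 to -15, all on the gene's own strand. Neither Syk window held any of the 5, and the same was true of Fgr, Btk and Ptpn6. Of 32851 windows of the same length, 3.2% held GAGGAAGT, 3.89% CCGGAAGT, 7.81% TGANTCA, 7.15% CACGTG and 13.6% TATAAA. A match is a description of letters in a window, not a bound site. Only these forms were searched, so a window without a match may still hold a site with other letters. Gene-level counts do not tell which start is used, and GENCODE lists 10 starts for Inpp5d, 11 for Ptpn6, 5 for Syk, 4 each for Btk and Vav1, 3 for Fgr and 1 for Plcg2. The 250 bases before the start are shown 5′ to 3′ on the gene's strand for 2 genes that fell with iBET, Fgr (chr4:132973845-132974094, plus strand) and Btk (chrX:134583141-134583390, minus strand), and for the 2 genes with the PU.1 letters, Inpp5d (chr1:87620062-87620311, plus strand) and Vav1 (chr17:57278850-57279099, plus strand). Capitals mark the PU.1 letters.
Fgr: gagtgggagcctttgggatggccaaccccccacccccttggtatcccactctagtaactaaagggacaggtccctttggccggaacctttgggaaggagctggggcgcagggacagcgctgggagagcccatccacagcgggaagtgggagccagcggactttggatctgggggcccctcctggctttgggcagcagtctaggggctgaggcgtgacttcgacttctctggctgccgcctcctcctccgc
Btk: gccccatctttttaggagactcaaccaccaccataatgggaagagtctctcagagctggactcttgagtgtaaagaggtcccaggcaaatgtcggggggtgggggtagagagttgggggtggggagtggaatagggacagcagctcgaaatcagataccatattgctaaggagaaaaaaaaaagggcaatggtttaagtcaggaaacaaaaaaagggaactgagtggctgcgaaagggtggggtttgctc
Inpp5d: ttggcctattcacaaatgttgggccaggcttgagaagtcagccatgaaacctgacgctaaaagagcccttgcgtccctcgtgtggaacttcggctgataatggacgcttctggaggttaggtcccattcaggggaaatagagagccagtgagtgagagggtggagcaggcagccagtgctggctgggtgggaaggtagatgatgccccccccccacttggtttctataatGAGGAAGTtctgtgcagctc
Vav1: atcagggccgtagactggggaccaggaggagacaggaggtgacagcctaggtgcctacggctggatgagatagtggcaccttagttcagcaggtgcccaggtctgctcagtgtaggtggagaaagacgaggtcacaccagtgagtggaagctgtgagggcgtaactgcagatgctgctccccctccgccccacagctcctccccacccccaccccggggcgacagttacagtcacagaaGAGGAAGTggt

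Total counts per library ranged from 7.55 M to 17.4 M. The ribosomal precursor Rn45s took 1.41% to 7.83% of the counts in 11 libraries and 77.4% in DMSO Ova A, where 1.77 M counts remained for other genes against 7.25 M to 16.9 M elsewhere. Several results that rest on that library are therefore also given without it. The label of macrophage was checked against 7 markers (Csf1r, Adgre1, Cd68, Mertk, Itgam, Cd14 and Lyz2), all of which were tested and whose summed level was 6109 to 8361 CPM (counts scaled to a common library size with TMM factors). Summed lists of neutrophil markers (8.22 to 41.4 CPM), B cell markers (0.226 to 1.33 CPM) and T cell markers (1.08 to 4.43 CPM) were far lower. The defining B cell genes Pax5 and Ebf1 were at 0 in all 12 libraries. In bulk samples, fewer cells of a type and less RNA per cell cannot be told apart.

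Together the 9 genes took 0.183% to 0.199% of the counts outside Rn45s in the 6 DMSO libraries and 0.147% to 0.154% in the 6 iBET libraries, so these ranges did not overlap. Per length of exon, Ptpn6 was the most abundant of the 9 in DMSO Ova (102 ± 22.9 CPM per kb, SD, n = 3), followed by Vav1 (81.2 ± 22.6), Lyn (63.6 ± 2.93), Plcg2 (47.9 ± 4.93), Inpp5d (30.3 ± 5.09), Syk (27.6 ± 2.84), Btk (21.6 ± 1.48), Fgr (3.16 ± 0.559) and Sla (2.07 ± 0.276). Libraries of Ptpn6 and Vav1 overlapped, as did those of Inpp5d and Syk, and the other neighbours in this order did not. In iBET Ova the order opened with Lyn (67.8 ± 4.74 CPM per kb), followed by Vav1 (60.4 ± 3.46), Plcg2 (58.3 ± 6.68) and Ptpn6 (55.5 ± 3.72). Vav1, Plcg2 and Ptpn6 overlapped one another there, and Lyn overlapped Plcg2, which was the higher of the pair in mouse C. The DMSO IC order was that of DMSO Ova except that Syk (31.0 ± 2.23 CPM per kb) and Inpp5d (26.2 ± 3.39), which overlapped, changed places. Ptpn6 led that group by its mean through DMSO IC A alone (147 CPM per kb), since in mice B and C it was at 64.6 and 70.9 and Vav1 at 71.5 and 72.2 CPM per kb. In iBET IC, Lyn (75.4 ± 2.07 CPM per kb) was again above Vav1 (58.8 ± 2.46), Plcg2 (55.7 ± 1.84) and Ptpn6 (43.2 ± 4.31). Fgr and Sla were the lowest in all 4 groups.

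**Figure D1:**
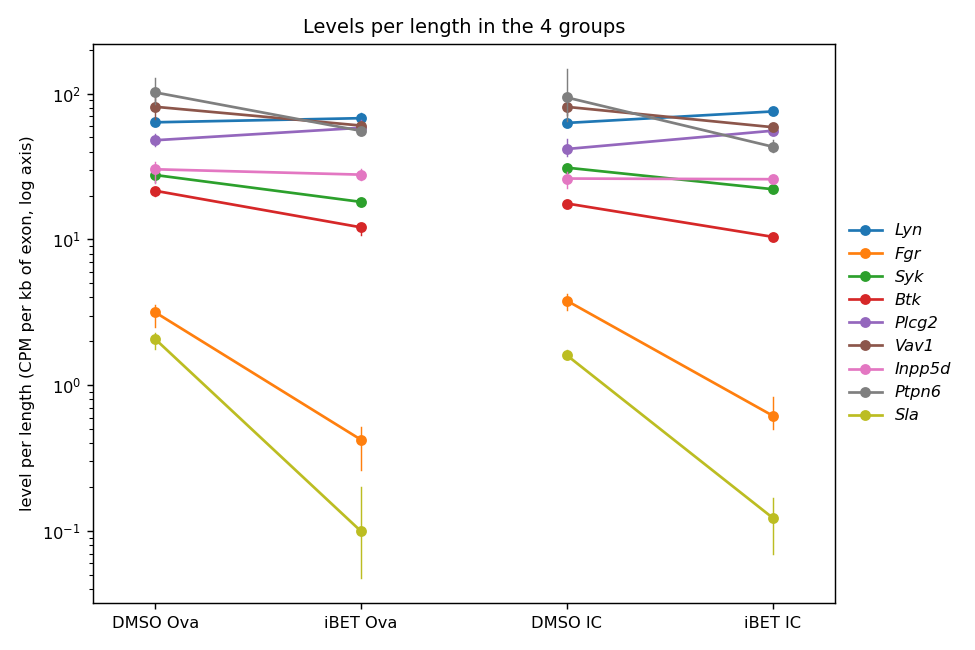
Level of each of the 9 genes per kb of exon (CPM per kb, log axis) in the 4 groups; points are means of 3 libraries, thin vertical lines their range, and lines join DMSO to iBET within a stimulus. By its mean Ptpn6 is the highest point in the DMSO groups, with a range that overlaps that of Vav1, and Lyn is the highest in the iBET groups, while Fgr and Sla drop below 1 CPM per kb with iBET.

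The comparison of iBET with DMSO asked which of these transcripts depend on BET proteins, with and without receptor cross-linking. With Ova, 5 of the 9 genes were called (adjusted p under 0.05 over all 11468 genes), all lower with iBET: Fgr, Syk, Btk, Ptpn6 and Sla. Of all genes tested, 31.3% were called in that comparison, 17.1% higher and 14.2% lower. With IC, 7 of the 9 were called, the same 5 genes lower and Lyn and Plcg2 higher, where 34.8% of all genes were called, 19% higher and 15.8% lower. Thus 5 of the 9 were called lower in both drug comparisons, as were 11.6% of all genes, and 0 of the 9 were called higher in both, as were 14.3% of all genes. The median log2 fold change of the 9 was -0.61 with Ova and -0.49 with IC, beside 0.019 and -0.0037 over all genes. The groups did not overlap for 7 of the 9 genes with Ova and for 8 with IC, where 45.1% and 48.6% of all genes tested had groups without overlap. Without DMSO Ova A, 4 genes were called with Ova (Ptpn6 was lost) and 8 with IC (Vav1 was added), beside 29% and 38.3% of all genes in that fit. With mouse as a block in the model, 7 were called with Ova (Plcg2 and Vav1 added) and 8 with IC (Vav1 added), beside 38.3% and 42.1% of all genes.

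**Figure D2:**
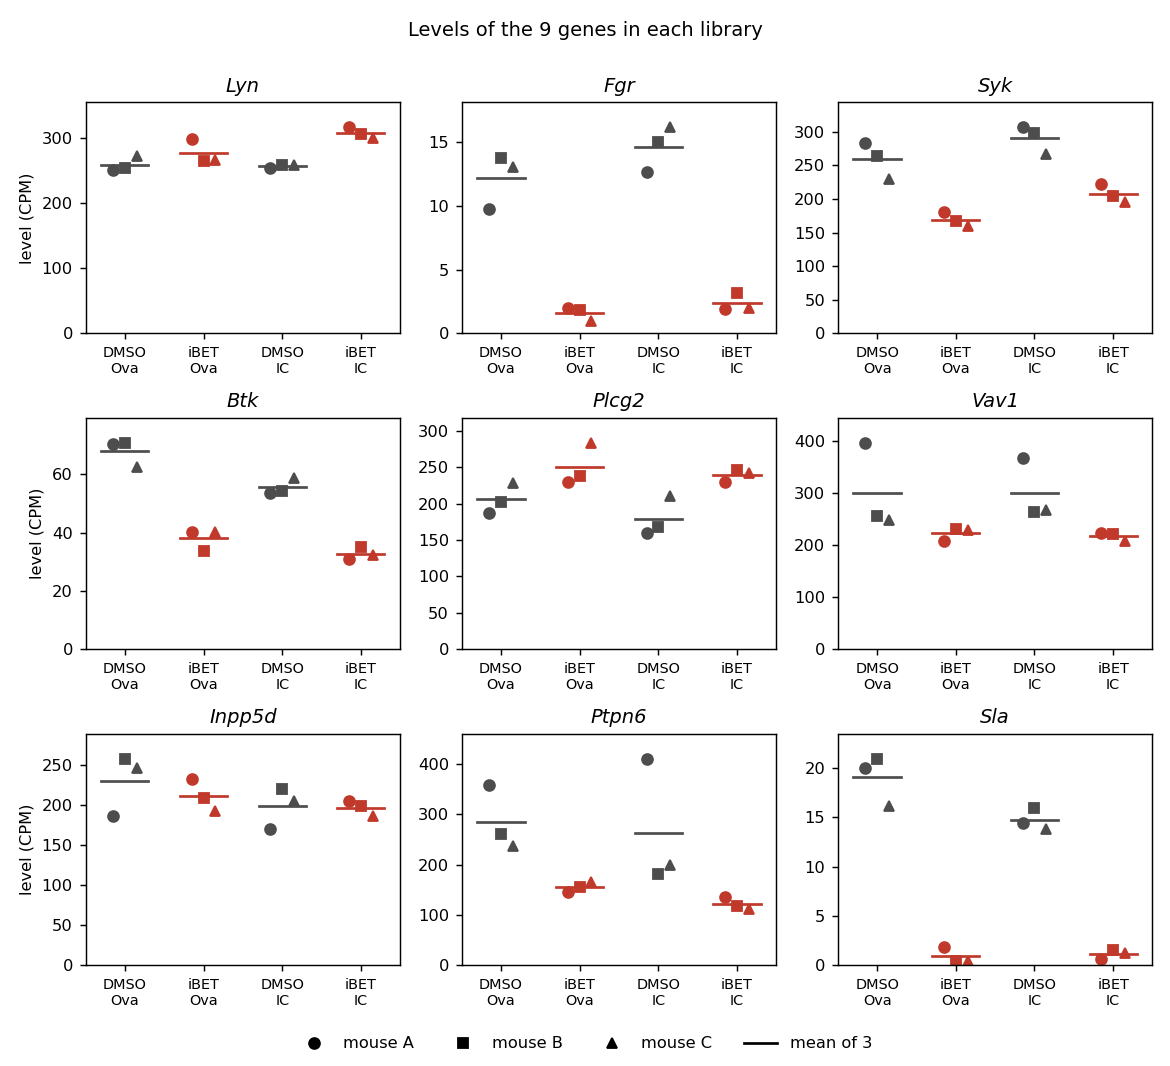
Level (CPM) of each of the 9 genes in the 12 libraries, one panel per gene with its own axis from 0; symbols mark mice A, B and C, horizontal lines the mean of 3, grey DMSO and red iBET. Fgr, Syk, Btk, Ptpn6 and Sla lie lower in every iBET library than in any DMSO library of the same stimulus, and the DMSO libraries of mouse A stand above those of mice B and C for Vav1 and Ptpn6.

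Lyn (chr4:3678115-3813122, plus strand; positions here and below are from GENCODE on GRCm38) phosphorylates both ITAMs and ITIMs, and its level moved little. In mice A, B and C it was 251.2, 253 and 273 CPM in DMSO Ova and 298, 264 and 266 CPM in iBET Ova, so these groups overlapped. With IC the levels were 253, 258 and 258 CPM in DMSO and 316, 306 and 299 CPM in iBET. All 3 iBET IC libraries were above all 3 DMSO IC libraries. The log2 fold change was 0.093 with Ova (95% interval -0.092 to 0.28, adjusted p 0.441) and 0.26 with IC (0.078 to 0.45, adjusted p 0.0301), in 3 of 3 mice with IC. Of 24 alternative fits 13 lost the call with IC, among them those without any 1 of the 6 IC libraries and all 3 fits without 1 mouse, with adjusted p of up to 0.224. Exons of Lyn share bases with the opposite-strand transcript Gm26857, and since the use of strand in counting was not stated, reads of the pair cannot be told apart.

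Fgr (chr4:132974095-133001910, plus strand), the second Src family kinase, fell sharply from a low level. Raw counts in mice A, B and C were 19, 180 and 158 in DMSO Ova and 26, 17 and 9 in iBET Ova, which correspond to 9.76, 13.8 and 13.1 CPM against 2.01, 1.88 and 1.02 CPM. With IC they were 151, 137 and 170 counts in DMSO and 36, 33 and 17 counts in iBET, or 12.7, 15.1 and 16.2 CPM against 1.92, 3.2 and 2.04 CPM. No iBET library reached the CPM of any DMSO library. The fall was 7.55-fold with Ova (log2 fold change -2.92, SE 0.27, adjusted p 9.89e-06) and 6.19-fold with IC (-2.63, SE 0.25, adjusted p 1.05e-05), in 3 of 3 mice each time. Among all genes tested Fgr had the 41st and the 60th lowest log2 fold change in the Ova and IC drug comparisons. The call held in all 15 fits without 1 library or 1 mouse, and the log2 fold change of Fgr with Ova was -3.06 once DMSO Ova A was left out. Neutrophils also use Fgr, and the summed neutrophil list was 8.22 to 41.4 CPM in DMSO Ova, 10.7 to 38.9 in iBET Ova, 9.51 to 34.8 in DMSO IC and 12.0 to 30.1 in iBET IC, with 0 of its 4 tested genes called in any of the 5 comparisons. The per-length level of Lyn was 20.5 ± 3.58 times that of Fgr in DMSO Ova and 174 ± 64.4 times in iBET Ova, against 16.7 ± 1.95 and 129 ± 33.9 times with IC.

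Syk (chr13:52583173-52648792, plus strand), the kinase that docks on phosphorylated ITAMs, fell by a smaller amount. Its levels in mice A, B and C were 283, 263 and 230.4 CPM in DMSO Ova and 181, 168 and 159 CPM in iBET Ova. With IC they were 307, 298 and 267 CPM in DMSO and 222, 204 and 195 CPM in iBET. Every iBET library was below every DMSO library of the same stimulus. The iBET level was 65.5% of the DMSO level with Ova (log2 fold change -0.61, SE 0.11, adjusted p 0.000915) and 71.2% with IC (-0.49, SE 0.10, adjusted p 0.00316). The changes per mouse were alike, from -0.53 to -0.65 on the log2 scale with Ova and from -0.45 to -0.55 with IC. Both calls held in the 12 fits without 1 library and were lost only without mouse B (adjusted p 0.0644 with Ova and 0.108 with IC) among the 24 alternatives.

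Btk (chrX:134542336-134583570, minus strand), the Tec family kinase that activates phospholipase C gamma, fell to a little over the middle of its DMSO level. The levels in mice A, B and C were 70.4, 70.8 and 62.5 CPM in DMSO Ova and 40.3, 33.7 and 40.3 CPM in iBET Ova. With IC they were 53.5, 54.1 and 58.9 CPM in DMSO and 30.9, 35.0 and 32.5 CPM in iBET. The drug groups did not overlap in either stimulus. The iBET level was 56.3% of DMSO with Ova (log2 fold change -0.83, SE 0.11, adjusted p 0.000105) and 59.0% with IC (-0.76, SE 0.10, adjusted p 0.000158), and both calls held in all 24 alternative fits.

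Plcg2 (chr8:117498291-117635142, plus strand), which makes the second messengers that release calcium and activate protein kinase C, moved the other way. Levels in mice A, B and C were 187, 202 and 229 CPM in DMSO Ova and 230.2, 238 and 283 CPM in iBET Ova. With IC they were 160.1, 167 and 210.3 CPM in DMSO and 230.4, 246 and 242 CPM in iBET. In both stimuli the iBET libraries lay above the DMSO libraries, by a narrow margin with Ova. The log2 fold change was 0.28 with Ova (95% interval 0.0067 to 0.55, adjusted p 0.112) and 0.42 with IC (0.14 to 0.69, adjusted p 0.0217), with 3 of 3 mice higher in each. With mouse as a block the Ova comparison also passed (adjusted p 0.0261). Without DMSO Ova A the log2 fold change with Ova was 0.17 (adjusted p 0.398). The call with IC was lost when DMSO IC A, DMSO IC B, iBET IC B or iBET IC C was left out, and without mouse B (adjusted p 0.253). Set against its activator, Plcg2 stood at 2.24 ± 0.390 times the per-length level of Btk in DMSO Ova and 4.84 ± 0.563 in iBET Ova, and at 2.36 ± 0.227 and 5.35 ± 0.180 in DMSO IC and iBET IC.

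Vav1 (chr17:57279100-57328031, plus strand), the exchange factor for Rac, was lower with iBET without passing the test in the main model. Its levels in mice A, B and C were 395, 255 and 248 CPM in DMSO Ova, 208, 231 and 229 CPM in iBET Ova, 367, 264 and 266 CPM in DMSO IC and 223, 221 and 207 CPM in iBET IC. The iBET libraries lay below the DMSO libraries in both stimuli, and mouse A was the highest DMSO library in both. The log2 fold change was -0.42 with Ova (95% interval -0.80 to -0.039, adjusted p 0.0887) and -0.46 with IC (-0.84 to -0.083, adjusted p 0.0577). The change was -0.93 in mouse A against -0.14 and -0.11 in mice B and C with Ova, and -0.72 against -0.26 and -0.37 with IC. With mouse as a block the adjusted p was 0.0485 with Ova and 0.0234 with IC. In DESeq2 it was 0.0473 and 0.0282. Without DMSO Ova A the log2 fold change was -0.23 with Ova (adjusted p 0.214) and -0.48 with IC (adjusted p 0.00638). Of 24 alternative fits, 4 called Vav1 with Ova and 10 with IC.

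Among the inhibitory genes, Inpp5d (chr1:87620312-87720507, plus strand) showed no called change. Levels in mice A, B and C were 186, 258 and 246 CPM in DMSO Ova, 233, 208 and 193 CPM in iBET Ova, 170.4, 221 and 205 CPM in DMSO IC and 205, 199 and 187 CPM in iBET IC. The drug groups overlapped in both stimuli. The log2 fold change was -0.13 with Ova (95% interval -0.42 to 0.17, adjusted p 0.515) and -0.015 with IC (-0.31 to 0.28, adjusted p 0.946). Mouse A was higher with iBET (0.32 with Ova and 0.27 with IC on the log2 scale) and mice B and C were lower, by values from -0.35 to -0.14. The mouse A value with Ova rests on DMSO Ova A, and without that library the log2 fold change with Ova was -0.30 (adjusted p 0.0953). Without mouse A, Inpp5d was called lower with Ova (-0.36, SE 0.095, adjusted p 0.0132).

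Ptpn6 (chr6:124720707-124738714, minus strand), which removes phosphate from the targets of Syk and Src family kinases, fell in both stimuli. Levels in mice A, B and C were 358, 262 and 237 CPM in DMSO Ova and 145, 156 and 166 CPM in iBET Ova. With IC they were 411, 181 and 199 CPM in DMSO and 135, 117 and 111 CPM in iBET. All iBET libraries were below all DMSO libraries of the same stimulus, and DMSO IC A stood at over 2 times the level of DMSO IC B and C. The iBET level was 54.7% of DMSO with Ova (log2 fold change -0.87, SE 0.27, adjusted p 0.0331) and 46.0% with IC (-1.12, SE 0.28, adjusted p 0.00881), with 3 of 3 mice lower. Without DMSO IC A the IC change was -0.68 (SE 0.15, adjusted p 0.0053). Leaving out DMSO Ova A, DMSO Ova B or any 1 of the iBET Ova libraries ended the Ova call, as did leaving out mouse B or mouse C or dropping the filter on low counts, whereas the IC call held in all 24 alternatives. Exons of Ptpn6 share bases with the opposite-strand transcript Gm20531, with the same limit on strand as for Lyn. Relative to this phosphatase, the per-length level of Lyn was 0.647 ± 0.156 in DMSO Ova and 1.23 ± 0.167 in iBET Ova, and 0.766 ± 0.299 in DMSO IC and 1.75 ± 0.123 in iBET IC. The groups of that ratio did not overlap in either stimulus, which follows from the levels of Ptpn6 and Lyn given above and is not a separate result. The ratio of Syk to Ptpn6 overlapped between drug groups with Ova (0.237 to 0.301 in DMSO, 0.288 to 0.374 in iBET). With IC it did not, by a very narrow margin (0.224 to 0.4926 in DMSO, 0.4938 to 0.525 in iBET). This ratio too follows from the levels given above and is not a separate result.

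Sla (chr15:66780819-66831829, minus strand), the adaptor that brings Cbl to receptors, had the largest fall of the 9. Raw counts in mice A, B and C were 39, 273 and 195 in DMSO Ova and 24, 4 and 4 in iBET Ova, or 20.0, 20.9 and 16.2 CPM against 1.85, 0.441 and 0.451 CPM. With IC they were 171, 145 and 145 counts in DMSO and 12, 16 and 10 counts in iBET, or 14.4, 16.0 and 13.8 CPM against 0.64, 1.55 and 1.2 CPM. The iBET level was 5.33% of DMSO with Ova (95% interval of the log2 fold change -5.10 to -3.36) and 7.29% with IC (-4.63 to -2.93). It had the 12th and the 13th lowest log2 fold change of all genes tested. With 4 counts in a pair of libraries, the size of the fall is imprecise, and it ranged from -5.37 to -3.92 with Ova over the 12 fits without 1 library. T cells use Sla as well, and of the T cell list Cd3e, Cd3d, Cd3g and Cd8a had 0 to 3 counts per library and Cd4 6 to 83. Cd4, the 1 gene of that list that was tested, was not called in either drug comparison (log2 fold change 0.58 with Ova and 0.15 with IC, adjusted p 0.377 and 0.817). The summed T cell list was 1.08 to 3.08 CPM in DMSO Ova, 2.48 to 3.94 in iBET Ova, 2.00 to 3.41 in DMSO IC and 1.44 to 4.43 in iBET IC. The gene lies within Tg on the opposite strand, with no shared exon bases, and Tg had 0 to 2 counts per library.

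**Figure D3:**
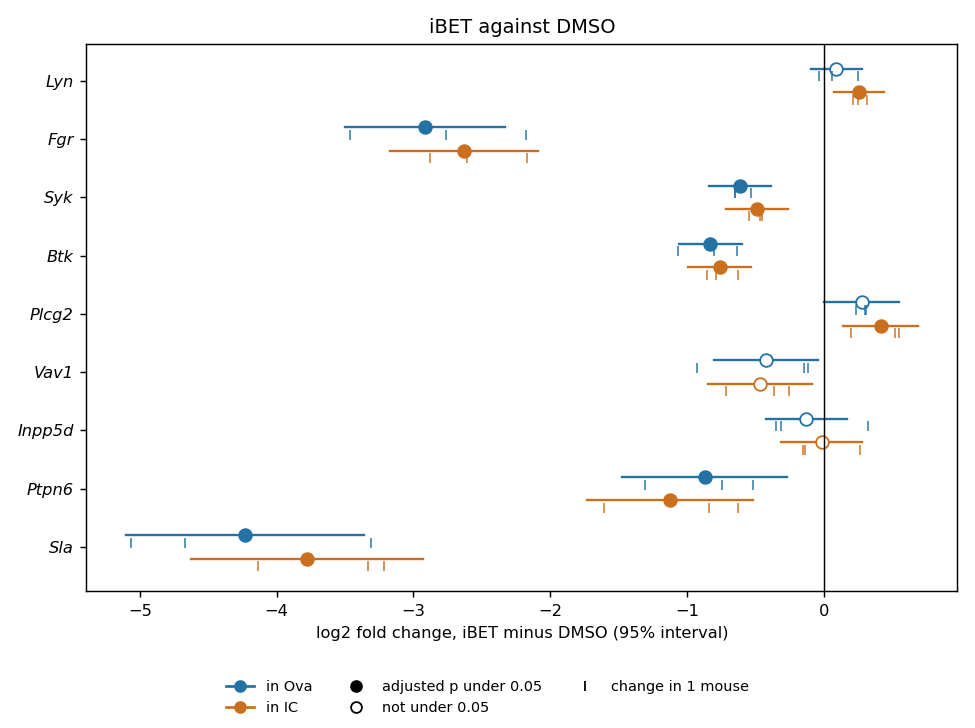
Log2 fold change of each gene, iBET minus DMSO, with Ova (blue) and IC (orange); lines are 95% intervals, filled circles adjusted p under 0.05, and ticks below the circles the changes in single mice. Fgr and Sla fall far outside the span of the other 7 genes, and Lyn and Plcg2 lie to the right of 0.

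The comparison of IC with Ova asked whether cross-linking of the receptors changes the transcripts of their own signalling machinery at 4 hours. In DMSO 0 of the 9 genes were called, where 1.22% of all genes were, and in iBET 0 of 9, where 0.349% of all genes were. At an unadjusted p under 0.05 there was 1 of the 9 in each, Btk in DMSO and Syk in iBET, beside 11.7% and 7.5% of all genes, so 1 of 9 is near these shares. DESeq2 likewise called 0 of the 9 in either arm, beside 2.37% and 0.899% of all genes. The median log2 fold change of the 9 was -0.108 in DMSO and -0.0367 in iBET, beside -0.0104 and -0.0112 over all genes. The 95% intervals of the 9 lay within -1.04 and 0.70 in DMSO and within -0.996 and 1.17 in iBET. They were narrowest for Lyn, at -0.20 to 0.17 in DMSO and -0.030 to 0.34 in iBET, and widest for Sla.

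Btk was lower with IC in DMSO in 3 of 3 mice and its groups did not overlap (67.9 ± 4.66 against 55.5 ± 2.95 CPM, SD, n = 3). Its log2 fold change was -0.29 (SE 0.10, adjusted p 0.266), and in iBET it was -0.22 (adjusted p 0.686), lower in 2 of 3 mice. Syk had higher values with IC in every mouse of both arms, with a log2 fold change of 0.17 in DMSO (95% interval -0.058 to 0.40, adjusted p 0.627) and 0.29 in iBET (0.062 to 0.52, adjusted p 0.486). Its groups overlapped in DMSO and did not in iBET, where the changes per mouse ran from 0.28 to 0.30. Groups did not overlap for 2 of the 9 genes in DMSO and 3 in iBET, beside 15.3% and 18.9% of all genes. Sla was the other gene without overlap in DMSO (-0.36, adjusted p 0.772), and Lyn (0.15, adjusted p 0.748) and Ptpn6 (-0.36, adjusted p 0.843) the others in iBET. Fgr was 1.16 times its Ova level in DMSO and 1.42 times in iBET (adjusted p 0.834 and 0.764). Plcg2, Inpp5d and Vav1 had log2 fold changes of -0.20, -0.22 and 0.0057 in DMSO and of -0.067, -0.10 and -0.037 in iBET. Without DMSO Ova A the values in DMSO were -0.36 for Inpp5d (adjusted p 0.242) and -0.29 for Plcg2 (adjusted p 0.430), and still 0 genes were called. Without mouse A altogether, Ptpn6 was called lower with IC in iBET.

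**Figure D4:**
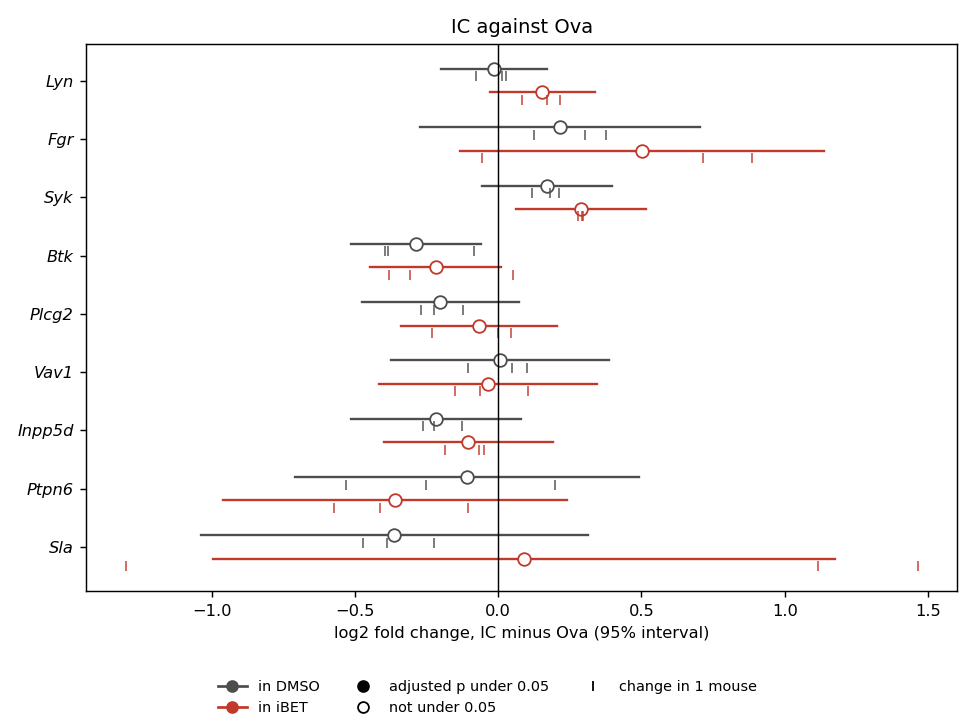
Log2 fold change of each gene, IC minus Ova, in DMSO (grey) and iBET (red); lines are 95% intervals, open circles adjusted p not under 0.05, and ticks the changes in single mice. All circles are open, and the Btk interval in DMSO and the Syk interval in iBET are the only ones that leave out 0.

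The interaction, which takes the effect of IC in DMSO away from its effect in iBET (equally, the drug effect in Ova away from that in IC), was called for 0 of the 9 genes and for 0% of all 11468 genes. None of the 9 had an unadjusted p under 0.05, against 2.55% of all genes, and DESeq2 called 0.0349% of all genes, which is 4 genes. The estimates ran from -0.25 for Ptpn6 to 0.45 for Sla. For Syk the interaction was 0.12 (95% interval -0.20 to 0.44), for Btk 0.068 (-0.25 to 0.39), for Lyn 0.17 (-0.092 to 0.43) and for Fgr 0.29 (-0.51 to 1.08), so a difference between stimuli of these sizes was not detectable with 3 mice. The call of Lyn and Plcg2 with IC and not with Ova is therefore not shown to differ between the stimuli.

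The rest of the pathway was described through 9 lists of 109 genes, of which 100 were tested. With iBET in Ova, 24 of the 100 were called higher and 25 lower (49%), and in IC 23 higher and 24 lower (47%), beside the 31.3% and 34.8% of all genes given above. Their median log2 fold change was 0.057 with Ova and 0.050 with IC. Without mouse B the counts fell to 20 with Ova and 23 with IC, where 11.4% and 15.4% of all genes were called, and without mouse C to 31 with Ova, where 17.6% were. By edgeR 0 of the 100 were called for IC against Ova in DMSO (18 at an unadjusted p under 0.05), in iBET (10) and for the interaction (1), and the shares of all genes at that p were the 11.7%, 7.5% and 2.55% given above. DESeq2 called 4, 0 and 0 of them. With mouse as a block the counts were 6 in DMSO and 0 in iBET, beside 2.75% and 0.741% of all genes. With 1 surrogate variable they were 9 in DMSO and 4 in iBET, and without mouse A 1 and 5. The shares of all genes in those fits are not given here.

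**Figure D5:**
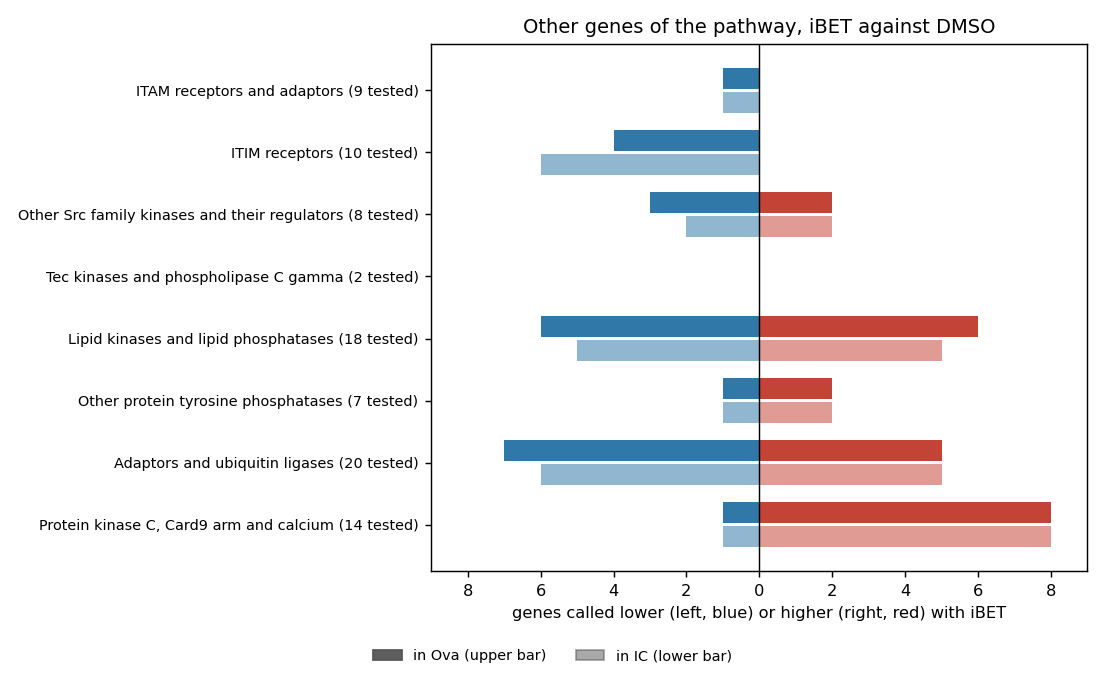
Number of genes called lower (left) and higher (right) with iBET in each of 8 pathway lists, upper bar Ova and lower bar IC, with the number tested beside each name. The ITAM and the ITIM receptor lists have bars to the left alone, and the list of protein kinase C, Card9 arm and calcium genes has 8 genes to the right against 1 to the left.

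Among receptors and adaptors upstream of the 9 genes, all called genes were lower with iBET, and most ITAM genes were not called. Of 9 ITAM receptors and adaptors 1 was called lower in each drug comparison. It was Fcgr3, the low-affinity activating Fc gamma receptor (log2 fold change -0.54 with Ova and -0.45 with IC). The other 8 were not called, which does not show that their levels were unchanged. The list's median was -0.0099 and 0.049. Of all genes, 14.2% with Ova and 15.8% with IC were called lower, and 17.1% and 19% higher. These shares are the background for each list here and below. Of 10 ITIM receptors 4 were called lower with Ova and 6 with IC, with medians of -0.42 and -0.50. Among those called in both comparisons the largest mean falls were in the sialic acid-binding receptor Cd33 (-1.77 and -1.49) and the lectin receptor Clec4a2 (-1.75 and -1.12).

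Other Src family kinases and their regulators were called in both directions, 2 higher and 3 lower of 8 with Ova and 2 higher and 2 lower with IC. Pag1, the membrane adaptor that brings the inhibitory kinase Csk to Src family kinases, rose from 19.6 ± 3.25 to 88.4 ± 5.61 CPM with Ova and from 17.7 ± 4.63 to 95.3 ± 8.37 CPM with IC (log2 fold change 2.14 and 2.43). Ptprj, a receptor phosphatase that acts on Src family kinases, rose by 0.47 and 0.45 on the log2 scale. Ptprc (CD45), which removes the inhibitory phosphate of Src family kinases, fell (-0.62 and -0.47), as did Src itself (-1.43 and -2.08). Of 2 tested genes related to Btk and Plcg2, Tec and Plcg1, 0 were called.

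Lipid kinases and phosphatases make and remove the phosphoinositides that Inpp5d acts on. Of 18 such genes, 6 were called higher and 6 lower with Ova, and 5 and 5 with IC (medians 0.13 and 0.16). Pik3r1, the regulatory subunit of phosphoinositide 3-kinase, rose (1.03 and 1.08), and so did Pip5k1c, which makes its substrate (0.88 and 0.84). Inppl1 (SHIP-2), the relative of Inpp5d, fell (-1.30 and -1.37), as did Pik3r5, a regulatory subunit of the gamma enzyme (-0.89 and -0.79). Of 7 other protein tyrosine phosphatases 2 were called higher and 1 lower in each comparison. The one called lower was Ptpn22, a brake on Src family and Syk kinases. It went from 106 ± 0.602 to 33.6 ± 5.19 CPM with Ova and from 130 ± 3.34 to 36.3 ± 4.61 CPM with IC (-1.66 and -1.84). Ptpn1 rose (0.51 and 0.43).

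Adaptors and ubiquitin ligases had 5 genes called higher and 7 lower of 20 with Ova and 5 and 6 with IC. Among the genes called in both comparisons, Gab3 (1.35 and 1.63) and Crkl (0.45 and 0.50) had the largest mean rises, and Blnk, which links Syk to Btk and phospholipase C gamma (-1.20 and -1.40), and Dok2, an inhibitory docking protein (-1.22 and -1.21), the largest mean falls. Among all genes, 17.1% with Ova and 19% with IC were called higher, and 14.2% and 15.8% lower. In the arm that follows Plcg2, 8 of 14 protein kinase C, Card9 arm and calcium genes were called higher and 1 lower in each comparison (medians 0.31 and 0.38). Itpr1, the calcium channel opened by the product of Plcg2, had the largest mean rise of those called in both (1.75 and 1.79). Prkce also rose (1.24 and 1.54), and the one called lower was Nfatc2 (-0.40 and -0.46). All genes named from these lists moved the same way in 3 of 3 mice in both drug comparisons. They were chosen for calls of 1 sign in these same mice, so this is no separate support.

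For each of the 5 genes called in both drug comparisons, the genes with the most similar log2 CPM over the 12 libraries were found among 9427 genes with a mean count of at least 50. These correlations describe a shared pattern across libraries that are mostly set apart by the drug. Fgr was most like Ptchd1 (Pearson r 0.992), Tns3 (0.991) and Dcstamp (0.987), and Sla most like Gcnt1 (0.991), Slc39a10 (0.989) and Dclre1a (0.983). Syk was most like Igsf6 (0.982), Plk2 (0.977) and Met (0.976), and Btk most like Il16 (0.983), Tifab (0.979) and Frmd4b (0.978). The closest to Ptpn6 were Anp32a (0.974), Cep250 (0.971) and Stx4a (0.971). None of the 9 genes was among the 3 closest of these 5.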

How the data were processed

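RNA-seq libraries were made with the SMARTer pico input kit from total RNA of BMDMs, 4 groups of 3. The authors trimmed reads with Trim Galore, aligned them to mm10 with HISAT2 and assigned them to genes with featureCounts. Annotation, strand setting and the handling of reads with several alignments were not given in the sources used here. The authors deposited raw counts per gene symbol and a normalized signal, which was checked and equalled the deposited counts divided by 1 size factor per library (largest relative gap 4.89e-15). The signal was used only in 1 alternative.

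Counts were analysed in R 4.3.3 with edgeR 4.0.16: filterByExpr (minimum count 10), TMM factors and 1 robust quasi-likelihood model with a term per group over 12 libraries, with 5 contrasts. Two-sided p-values were adjusted over the 11468 genes (Benjamini-Hochberg), with adjusted p under 0.05 taken as a call. The SE is the absolute log2 fold change over the square root of F, and the 95% interval uses the model's degrees of freedom. The change in a mouse is the difference of its log2 CPM (prior count 2). Levels per length divide CPM by the exon union of GENCODE vM21. The procedure was tested on simulated data without differences between mice, as a check of the code and not of these results.

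The members, lists and motifs were chosen with earlier results of these data known. The 9 genes were named throughout, and from each pathway list at most 2 rising and 2 falling genes, those called with 1 sign in both drug comparisons and with the largest mean change. The labels give the mouse of each library. The 18 pairs of libraries from 1 mouse had correlations of their deviations from group means of -0.0725 to 0.542 (median 0.263), and the 36 pairs from different mice of -0.499 to 0.271 (median -0.134), so mouse was a block in 1 alternative. The others were DESeq2 1.42.0, its size factors in edgeR, other count filters, 1 surrogate variable (sva 3.50.0), the compared groups alone, the authors' normalized signal in limma 3.58.1 (pseudocount 1), removal of Rn45s, and omission of each library and each mouse. Some genes of the lists and 1 pathway list, which stay in the counts over all lists, are not reported here.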

Additional observations from a re-analysis of the deposited data

How the results depend on the processing

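The limits lie in 3 mice per group and in the low counts of Fgr and Sla. The main model called 5 genes with Ova and 7 with IC. Each result was compared with every alternative fit, and these fits share most libraries. Counted as pairs of called result and fit, 256 stayed on the same side of the threshold, 28 lost the call and 0 changed direction. Of the 28 pairs, 13 were Lyn with IC, 8 Ptpn6 with Ova, 5 Plcg2 with IC, and 1 each Syk with Ova and with IC. Of the pairs for results not called, 726 were the same, 17 passed and 34 changed sign. With Ova, 3 genes were called when at least 10 counts were required in every library, because Fgr and Sla then left the table and 7 genes remained. Over fits without 1 library or 1 mouse the count ran from 3 to 6 with Ova and from 4 to 8 with IC. It was lowest without mouse B in both, where 11.4% and 15.4% of all genes were called. In the main model those shares were 31.3% and 34.8%. The shares for the count filter and for most other omissions are not given here. The count was 0 to 1 for IC against Ova in iBET, and 0 in DMSO and for the interaction. The paired fit with mouse as a replicate block gave 7 called with Ova, 8 with IC and 0 elsewhere, and it changed no call of the 9 genes beyond those of Plcg2 and Vav1.

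Sign changes were seen for estimates near 0 or with wide intervals, over fits without 1 library or 1 mouse. IC against Ova in DMSO ran from -0.058 to 0.025 for Lyn, from -0.58 to 0.10 for Ptpn6 and from -0.16 to 0.22 for Vav1. In iBET it ran from -0.12 to 0.031 for Plcg2, from -0.082 to 0.020 for Vav1 (0.030 with 1 surrogate variable) and from -0.52 to 1.64 for Sla. In the drug comparisons Lyn ran from -0.014 to 0.16 with Ova and Inpp5d from -0.15 to 0.068 with IC. The interaction ran from -0.25 to 0.13 for Vav1, from -0.11 to 0.22 for Btk, from -0.46 to 0.22 for Ptpn6 and from -0.19 to 1.95 for Sla. The cause was not tested.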
